A study of Mus musculus with 4 samples.

Results

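The genes described here are 46 genes of meiosis and the germ line that are normally methylated and silent in somatic cells. They were taken by name from a list and looked up among the 23537 genes of the deposited RNA table. Of the 46, 33 had a row under their own name and *Meioc* under its older name *Gm1564*, which made 34. The other 12, *Sycp1*, *Syce1*, *Syce3*, *Tex12*, *Hormad1*, *Rec8*, *Mael*, *Asz1*, *Stra8*, *Zfy2*, *Rpl10l* and *Tex101*, had no row, so their RNA was not analysed here. They are included only where promoter sequences are described. Each row of the table holds a count in at least 1 library. The rule that names the genes uses no measured value, but the list was chosen with earlier results of these data known.

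Germ cells pass through meiosis, in which homologous chromosomes are broken, paired along a protein axis and exchanged, and they defend their genome against transposons with piRNAs, small RNAs bound by PIWI proteins. Many genes for these tasks have CpG-rich promoters that gain DNA methylation in the early embryo and stay shut in body cells, where complexes that read E-box and E2F sites, such as the polycomb complex PRC1.6, also keep them silent. MBD4 is a protein that binds methylated CpGs and removes thymine from the G/T mismatches left when methylated cytosine deaminates.

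RNA was sequenced from primary MEFs (mouse embryonic fibroblasts), the connective tissue cells of embryos taken at day 12.5 after mating, in 2 *Mbd4*-/- (KO) and 2 *Mbd4*+/+ (WT) libraries, all labelled C57BL/6. Neither labels nor methods give the number of embryos or cultures behind the samples of a genotype, so the spread between them may be technical. The libraries held 39108275 to 47567835 counts. *Mbd4* itself had 373 and 302 counts in KO MEFs, against 663 and 630 in WT MEFs (log2 fold change -0.99, adjusted p = 2.8e-06 by edgeR's quasi-likelihood test), so it was lower but not absent in the libraries labelled KO. Differences between the genotypes were wide, since 66.8% of the 15538 genes tested passed an adjusted p of 0.05. DNA methylation was not measured in these libraries.

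More germline genes rose than fell in KO MEFs, and most had few reads in either genotype. Of the 34 genes with a row, 14 had enough reads to be tested and 20 did not. The 7 genes that rose in KO MEFs were *Sycp2*, *Syce2*, *Stag3*, *Smc1b*, *Tdrd7*, *Piwil2* and *Brdt*. *Meioc* fell and the other 6 did not pass the test. Over all genes tested, 34.3% rose and 32.5% fell at the same adjusted p of 0.05, and the difference of the 14 from that background was not tested. Both KO libraries were above both WT libraries for 8 of the 14, against 43.0% of all genes tested, and below them for 1, against 39.8%. The median log2 fold change of the 14 was 0.47, against 0.024 over all genes tested. These counts cover only genes that passed the filter on low counts, and *Sycp2* passed it through the KO libraries alone, *Meioc* and *Tex13* only through the WT libraries. The other 11 passed it in both genotypes, so the list is silent only in part in these cells. At the stricter limit of an adjusted p of 0.01 with a log2 fold change beyond 2, *Sycp2* rose and *Meioc* fell, where 5.79% of all genes tested rose and 3.15% fell. In RNA from whole cultures, a change in the number of cells that express a gene and a change in the RNA per cell cannot be told apart.

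**Figure D1:**
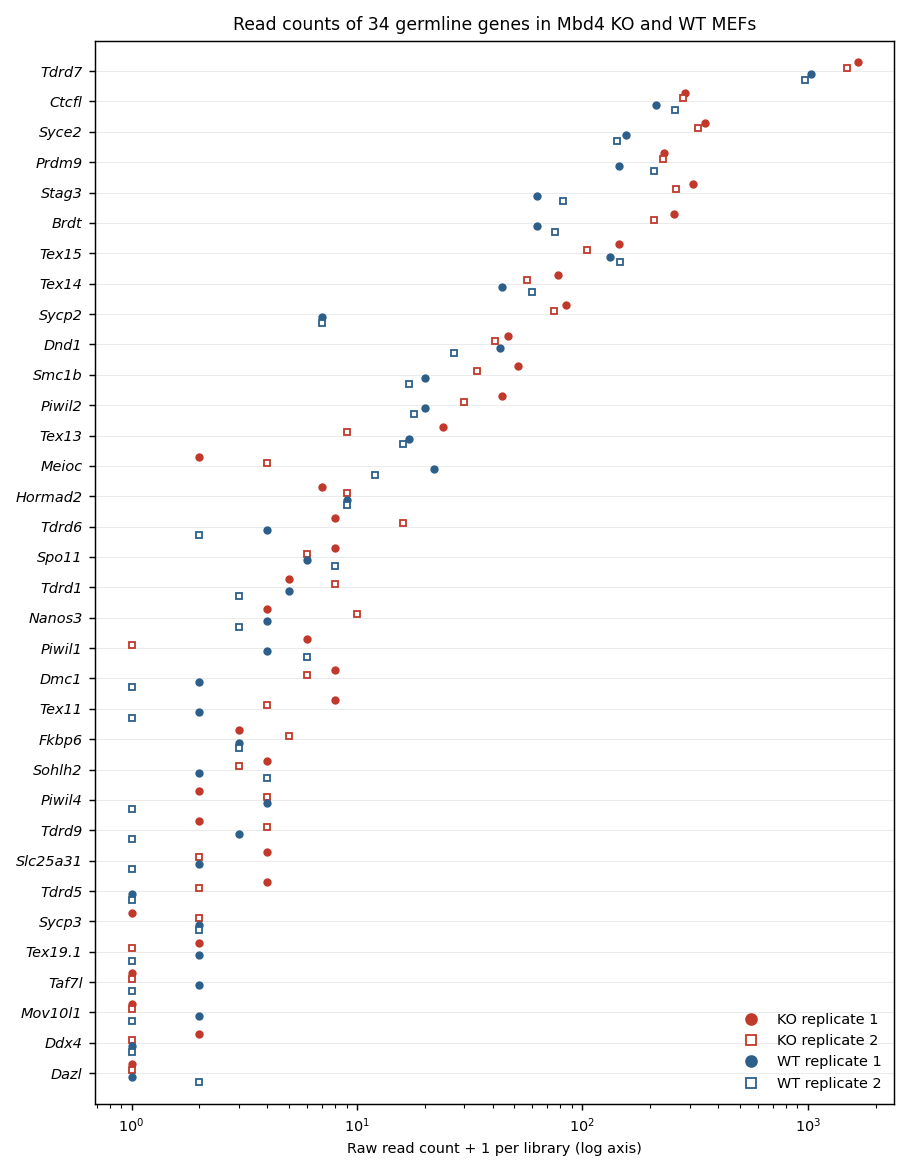
Raw read counts plus 1 (log axis) of the 34 germline genes with a row, in the 2 KO (red) and 2 WT (blue) libraries, ordered by total count. *Tdrd7* had the most reads, *Sycp2* shows the widest gap with KO above WT and *Meioc* the widest with KO below WT among genes with over 20 counts in all, and the lowest 6 genes have at most 3 counts in each genotype.

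**Figure D2:**
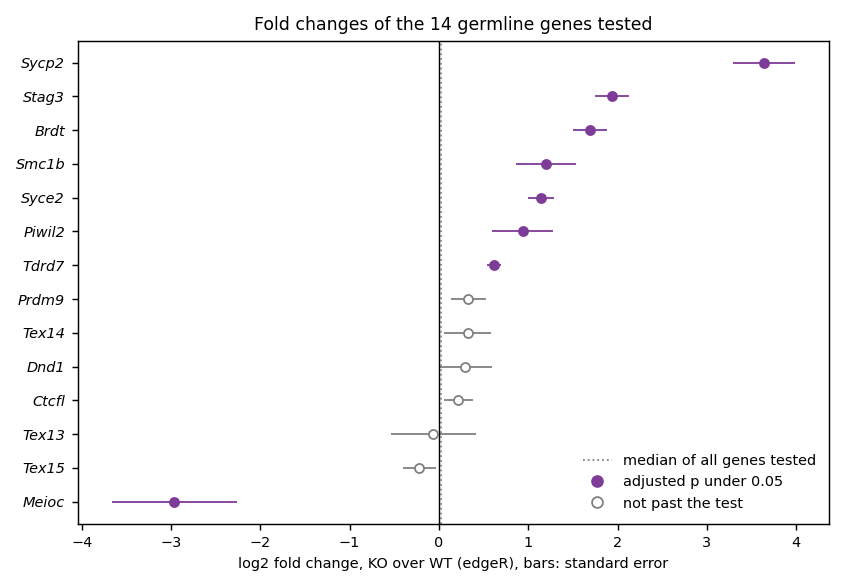
Log2 fold changes, KO over WT, of the 14 germline genes tested, with standard errors from edgeR. Filled points passed an adjusted p of 0.05, and the dotted line is the median of all genes tested (0.024). *Sycp2* lies at 3.64 and *Meioc* at -2.96.

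The promoters of these genes had a higher CpG content than those of all genes, and part of them held an E2F type motif or an E-box. Germline genes that are methylated in body cells are known for such promoters, so these shares describe the list and do not test it. RefSeq holds a window of 300 bases, from 250 before to 50 after the start of transcription, for 38 of the 46 genes. Where a gene had more than 1 window, only that with the most CpGs was used, for these genes and for all genes. *Tdrd7* had 3 windows and *Syce2* and *Prdm9* had 2 each, so their motifs were read at 1 of several starts. The median ratio of observed to expected CpGs was 0.706 in these 38 windows, against 0.413 in the 27025 windows of all RefSeq genes. The letters TCCCGC, an E2F type motif, stood on either strand of 18 of the 38 (47.4%), against 21.1% of all windows. The E-box CACGTG, which does not overlap TCCCGC in letters, stood in 16 of the 38 (42.1%), against 7.39% of all windows. Among windows with a CpG ratio of at least 0.6, CACGTG was in 53.8% of the 26 of these genes and in 11.3% of the 10340 of all genes, and TCCCGC in 61.5% of these genes and 43.7% of all genes. A match of letters is a description and not a binding site. Windows with and without CACGTG occurred both among the genes that rose and among those near zero, as the plot of CpG ratios shows. Of the 6 risen genes with a window, *Syce2*, *Stag3* and *Brdt* held CACGTG while *Sycp2*, *Smc1b* and *Tdrd7* did not. *Prdm9*, *Tex14* and *Meioc*, the tested genes with a window that did not rise, did not hold it either. Among genes near zero, *Dazl* held neither motif.

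**Figure D3:**
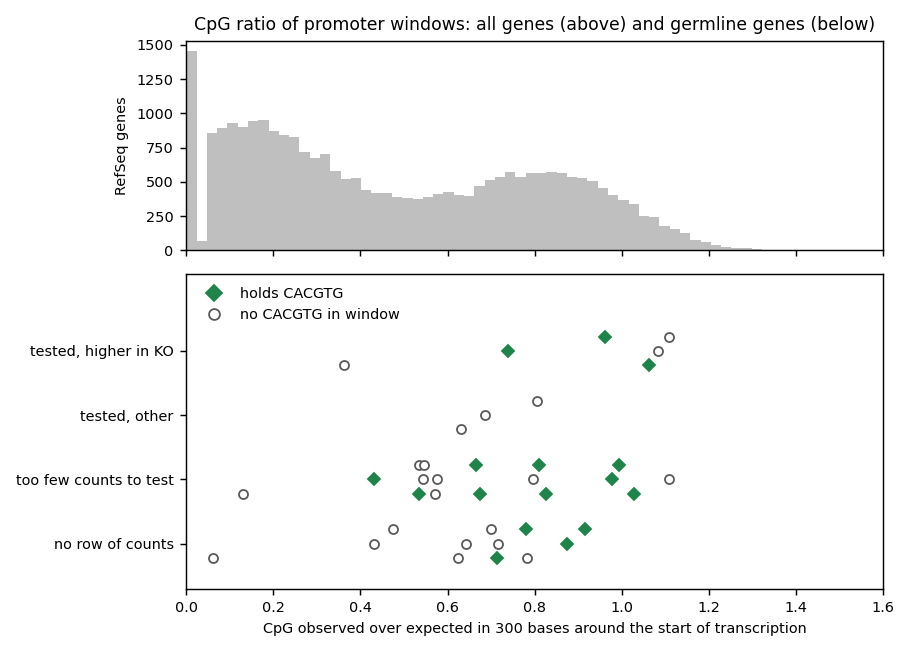
Ratio of observed to expected CpGs in promoter windows of 300 bases, 1 window per gene (that with the most CpGs). The upper panel counts all RefSeq genes and the lower panel shows the 38 germline genes with a window, by what their RNA did, with diamonds where the window holds CACGTG. Windows with and without CACGTG occur among the genes higher in KO MEFs, the genes with too few counts and the genes with no row, and *Sycp2* is the lowest of the risen genes at 0.363.

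The windows of 5 genes set 3 that rose beside 2 that stayed near zero. They are RefSeq sequences from a GRCm38 table, each matched exactly once in mm9, whose positions are given, and they run 5′ to 3′ on the strand of the gene. The start used is that of RefSeq, which can differ from the mm9 annotation. The window of *Stag3* lies wholly within the mm9 span of the gene, which begins at 138721468. That of *Meioc*, not printed here, lies within its mm9 span as well. Capitals mark the E2F type motif, as read on either strand, and the E-box. *Stag3* (chr5:138721487-138721786, plus strand, CpG ratio 1.06) and *Brdt* (chr5:107759963-107760262, plus strand, 0.738) rose and hold the E-box. *Sycp2* (chr2:178142314-178142613, minus strand, 0.363) rose the most and holds neither motif. *Ddx4* (chr13:113442469-113442768, minus strand, 0.978) and *Taf7l* (chrX:131010980-131011279, minus strand, 1.03) hold the same E-box and had at most 1 count in any library.
Stag3: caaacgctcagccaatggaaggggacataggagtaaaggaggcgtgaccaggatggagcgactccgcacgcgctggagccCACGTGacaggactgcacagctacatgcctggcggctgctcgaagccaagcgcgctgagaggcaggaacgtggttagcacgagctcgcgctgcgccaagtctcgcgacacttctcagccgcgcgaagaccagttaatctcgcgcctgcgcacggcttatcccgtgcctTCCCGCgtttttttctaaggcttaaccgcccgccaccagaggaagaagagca
Brdt: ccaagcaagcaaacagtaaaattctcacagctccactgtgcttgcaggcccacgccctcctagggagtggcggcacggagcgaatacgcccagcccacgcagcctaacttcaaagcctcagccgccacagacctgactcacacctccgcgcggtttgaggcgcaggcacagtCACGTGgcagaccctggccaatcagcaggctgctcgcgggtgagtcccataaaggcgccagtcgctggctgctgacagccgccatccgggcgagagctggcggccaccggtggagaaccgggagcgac
Sycp2: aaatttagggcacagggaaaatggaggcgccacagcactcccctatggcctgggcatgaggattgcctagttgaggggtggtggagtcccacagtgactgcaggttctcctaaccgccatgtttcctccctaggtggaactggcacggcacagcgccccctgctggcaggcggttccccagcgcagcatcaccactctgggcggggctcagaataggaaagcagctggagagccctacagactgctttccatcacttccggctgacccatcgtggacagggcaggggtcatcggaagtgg
Ddx4: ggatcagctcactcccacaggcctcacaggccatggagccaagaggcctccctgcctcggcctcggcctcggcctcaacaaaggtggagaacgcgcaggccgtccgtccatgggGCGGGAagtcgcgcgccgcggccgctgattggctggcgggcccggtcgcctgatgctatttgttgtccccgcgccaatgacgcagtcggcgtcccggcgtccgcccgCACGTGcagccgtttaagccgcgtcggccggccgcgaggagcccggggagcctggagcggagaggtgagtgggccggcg
Taf7l: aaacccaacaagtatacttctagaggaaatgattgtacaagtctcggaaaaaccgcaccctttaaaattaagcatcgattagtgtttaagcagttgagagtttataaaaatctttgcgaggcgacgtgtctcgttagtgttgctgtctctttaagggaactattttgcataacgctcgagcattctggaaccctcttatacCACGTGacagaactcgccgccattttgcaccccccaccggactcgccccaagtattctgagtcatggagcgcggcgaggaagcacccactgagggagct

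In the synaptonemal complex, the ladder that holds paired chromosomes together, *Syce2* rose, and so did *Sycp2*, which had enough reads for the test only in KO MEFs. *Sycp2* encodes a protein of the axis along each chromosome (chr2:178079998-178142390 in mm9, minus strand). It had 84 and 74 counts in KO MEFs, against 6 and 6 in WT MEFs. Both KO libraries were far above both WT libraries, with 1.78 ± 0.0198 CPM in KO MEFs and 0.140 ± 0.00884 CPM in WT MEFs (CPM, counts scaled to the size of the library, here with TMM; SD, n = 2 each). The log2 fold change was 3.64 (standard error 0.35, adjusted p = 6.6e-07 by edgeR), the largest among the 14 genes. *Syce2*, a protein of the central element that joins the axes (chr8:87396010-87412120, plus strand), had 350 and 326 counts in KO MEFs, against 156 and 141 in WT MEFs. The groups did not overlap, and the log2 fold change was 1.14 (standard error 0.14, adjusted p = 1.0e-05 by edgeR).

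The other genes of the axis stayed near zero. *Sycp3*, the partner of *Sycp2* in the axis, had 0 and 1 counts in KO MEFs, against 1 and 1 in WT MEFs. It shares 660 exonic bases with *Chpt1* on the other strand. Whether reads were counted by strand is not stated, so how reads in those bases were counted is not known. *Hormad2*, which marks axes that have not yet paired, had 6 and 8 counts in KO MEFs, against 8 and 8 in WT MEFs. *Tex11*, an X-linked gene needed for crossovers, had 7 and 3 counts in KO MEFs, against 1 and 0 in WT MEFs, a ratio of 9.66 with an exact 95% interval of 1.38 to 419 that covers counting error only. The KO libraries were thus above the WT libraries for *Tex11* and overlapped them for *Sycp3* and *Hormad2*.

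Both subunits of meiotic cohesin with a row rose. Cohesin is the ring that holds sister chromatids together, and germ cells swap several of its subunits for their own. *Stag3* (chr5:138721468-138753621, plus strand) had 310 and 260 counts in KO MEFs, against 62 and 81 in WT MEFs. The groups stood apart, and the log2 fold change was 1.94 (standard error 0.19, adjusted p = 7.6e-07 by edgeR), with a range of 1.69 to 2.18 when each library was left out. It passed the limit of 2 without WT replicate 2 (2.18) and with library totals in place of TMM scaling (2.09), and was lowest without WT replicate 1 (1.69). *Smc1b* (chr15:84895121-84962387, minus strand) had 51 and 33 counts in KO MEFs, against 19 and 16 in WT MEFs. Again both KO libraries were higher, and the log2 fold change was 1.20 (standard error 0.34, adjusted p = 0.00637 by edgeR). That call was lost with DESeq2 (adjusted p = 0.0632) and without KO replicate 1 (adjusted p = 0.118 by edgeR).

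Of 3 recombination genes only *Prdm9* had enough reads to be tested, and it did not pass. *Prdm9*, a histone methyltransferase that places the breaks of meiosis, had 230 and 227 counts in KO MEFs, against 144 and 206 in WT MEFs. WT replicate 1 was the low library, while WT replicate 2 came within the range of the KO libraries once scaled for depth, and the log2 fold change was 0.33 (standard error 0.20, adjusted p = 0.153 by edgeR). It was 0.65 without WT replicate 2 (adjusted p = 0.000338 by edgeR) and 0.034 without WT replicate 1 (adjusted p = 0.870 by edgeR), so the value turned on which WT library was used. *Spo11*, which makes the breaks, had 7 and 5 counts in KO MEFs, against 5 and 7 in WT MEFs. *Dmc1*, the meiotic recombinase that repairs them, had 7 and 5 counts in KO MEFs, against 1 and 0 in WT MEFs. Only for *Dmc1* did the KO libraries of these genes with few reads stand above the WT libraries, at a ratio of 11.6 (exact 95% interval 1.72 to 496, counting error only).

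Among 12 genes of the piRNA pathway and the germ granule with a row, *Tdrd7* and *Piwil2* were tested and both rose. *Tdrd7*, a Tudor protein of RNA granules that is also used in the lens (chr4:45978206-46047633, plus strand), had 1672 and 1500 counts in KO MEFs, against 1033 and 968 in WT MEFs. It was the most abundant of the 34 genes, at 8.89 ± 0.213 RPKM in KO MEFs and 5.80 ± 0.0992 RPKM in WT MEFs (RPKM, counts scaled for depth and divided by the length of the exons; SD, n = 2 each), so it was not silent in WT MEFs. Its log2 fold change was 0.62 (standard error 0.076, adjusted p = 7.6e-06 by edgeR). *Piwil2*, a PIWI protein that takes part in making piRNAs (chr14:70772287-70828901, minus strand), had 43 and 29 counts in KO MEFs, against 19 and 17 in WT MEFs. Both KO libraries were above both WT libraries, and the log2 fold change was 0.94 (standard error 0.34, adjusted p = 0.0263 by edgeR). This call did not hold when any 1 library was left out (adjusted p = 0.0552 to 0.235 by edgeR) or with DESeq2 (adjusted p = 0.173).

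The other 10 genes of this pathway had at most 15 counts in any library. *Tdrd6*, a scaffold of the chromatoid body of spermatids, had 7 and 15 counts in KO MEFs, against 3 and 1 in WT MEFs. Both KO libraries were higher, at a ratio of 5.31 (exact 95% interval 1.81 to 21.2, counting error only). With no filter on low counts it passed edgeR's test (log2 fold change 2.34, adjusted p = 0.0169), where 22.5% of all 23537 genes rose and 22.6% fell. *Tdrd5* had 3 and 1 counts in KO MEFs, against 0 and 0 in WT MEFs, at least 1.29-fold higher if WT MEFs are set to a floor of 3 counts, although the exact 95% interval of the ratio starts at 0.638. *Tdrd1*, a partner of PIWI proteins, had 4 and 7 counts in KO MEFs, against 4 and 2 in WT MEFs. *Piwil1* had 5 and 0 counts in KO MEFs, against 3 and 5 in WT MEFs. The groups overlapped for *Tdrd1* and *Piwil1*, as they did for *Tdrd9*, *Piwil4*, *Fkbp6*, the RNA helicases *Ddx4* and *Mov10l1* and the transposon repressor *Tex19.1*, the last 6 with at most 6 counts summed over a genotype.

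*Meioc*, which keeps germ cells in the programme of meiosis once they have entered it (chr11:102525030-102543551, plus strand), was the gene that fell. It had 1 and 3 counts in KO MEFs, against 21 and 11 in WT MEFs. The groups did not overlap, and the log2 fold change was -2.96 (standard error 0.70, adjusted p = 0.00196 by edgeR), with a range of -3.97 to -2.30 when each library was left out. Without KO replicate 1 the call was lost (adjusted p = 0.0559 by edgeR). *Dnd1*, an RNA-binding protein that primordial germ cells need to survive, had 46 and 40 counts in KO MEFs, against 42 and 26 in WT MEFs. After scaling for depth its KO libraries were above the WT libraries, but the difference did not pass the test (log2 fold change 0.29, standard error 0.30, adjusted p = 0.402 by edgeR), and 38 of its exonic bases also belong to *Wdr55* on the other strand. *Dazl*, a translational regulator that marks the germ cell fate, had 1 count in all, in a WT library. *Nanos3*, which protects primordial germ cells, had 3 and 9 counts in KO MEFs, against 3 and 2 in WT MEFs, and *Sohlh2*, a transcription factor of spermatogonia and oocytes, had 3 and 2 counts in KO MEFs, against 1 and 3 in WT MEFs.

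Of the germline regulators of transcription and chromatin, *Brdt* rose. It encodes the testis member of the BET family, whose bromodomains bind acetylated histones (chr5:107760178-107816077, plus strand), and had 253 and 207 counts in KO MEFs, against 62 and 75 in WT MEFs. The KO libraries were well above the WT libraries, and the log2 fold change was 1.69 (standard error 0.19, adjusted p = 3.1e-06 by edgeR). *Ctcfl*, the testis relative of the insulator protein CTCF, had 285 and 278 counts in KO MEFs, against 211 and 256 in WT MEFs. Its groups overlapped once scaled for depth, and it did not pass the test (log2 fold change 0.22, standard error 0.16, adjusted p = 0.249 by edgeR) except without WT replicate 2 (0.40, adjusted p = 0.0166 by edgeR), while without WT replicate 1 it was 0.021 (adjusted p = 0.914). It shares 171 exonic bases with *1300015D01Rik* on the other strand. How reads in those bases were counted is not known, because the sources used here do not state whether HTSeq used the strand. *Taf7l*, a germ cell form of a TFIID subunit, had 0 and 0 counts in KO MEFs, against 1 and 0 in WT MEFs.

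None of the 3 testis-expressed genes with a row and no closer group passed the test. *Tex14*, which keeps the bridges between dividing germ cells open, had 77 and 56 counts in KO MEFs, against 43 and 59 in WT MEFs (log2 fold change 0.32, standard error 0.27, adjusted p = 0.300 by edgeR). *Tex15*, which acts in transposon silencing and in the repair of meiotic breaks, had 145 and 104 counts in KO MEFs, against 132 and 146 in WT MEFs (log2 fold change -0.22, standard error 0.19, adjusted p = 0.325 by edgeR). *Tex13* had 23 and 8 counts in KO MEFs, against 16 and 15 in WT MEFs (log2 fold change -0.061, adjusted p = 0.919 by edgeR), and the sign turned with library totals (0.087) and without KO replicate 2 (0.42). For all 3 genes the KO and WT libraries overlapped. *Slc25a31*, a mitochondrial ADP/ATP carrier of germ cells, had 3 and 1 counts in KO MEFs, against 1 and 0 in WT MEFs.

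The 20 genes with too few reads for the test held 61 and 67 counts together in KO MEFs, against 41 and 32 in WT MEFs. Both KO libraries were above both WT libraries for 5 of them, which were *Tex11*, *Dmc1*, *Tdrd5*, *Tdrd6* and *Slc25a31*, for none were both below, and 15 overlapped. Among all genes not tested, 17.3% had both KO libraries above and 15.3% had both below. *Mov10l1*, *Dazl* and *Taf7l* had no count in KO MEFs, and *Ddx4* and *Tdrd5* had none in WT MEFs. In 6 of the 20, at most 3 counts were seen in each genotype, so a difference was not detectable at this depth.

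Summed over all 34 genes, the RNA of the listed genes made up 80.3 and 82.1 CPM of the library totals in KO MEFs, against 42.2 and 48.02 CPM in WT MEFs. The KO libraries were higher, with 81.2 ± 1.30 CPM in KO MEFs and 45.1 ± 4.12 CPM in WT MEFs (SD, n = 2 each), a ratio of 1.8. With TMM scaling the sums were 76.4 and 77.9 CPM in KO MEFs, against 44.8 and 50.2 CPM in WT MEFs, a ratio of 1.62. Without the 3 most abundant genes, *Tdrd7*, *Ctcfl* and *Syce2*, the sums by library totals were 29.3 and 28.3 CPM in KO MEFs, against 12.8 and 16.1 CPM in WT MEFs. By role, the sums with TMM scaling were 9.40 and 9.995 CPM in KO MEFs, against 3.84 and 3.81 CPM in WT MEFs, for the synaptonemal complex and axis, and 7.60 and 7.11 CPM in KO MEFs, against 1.81 and 2.37 CPM in WT MEFs, for meiotic cohesin. For the piRNA pathway and germ granule they were 36.6 and 37.9 CPM in KO MEFs, against 23.9 and 24.3 CPM in WT MEFs, of which *Tdrd7* alone gave 35.2 and 36.4 CPM in KO MEFs, against 23.1 and 23.6 CPM in WT MEFs. The sums of the recombination genes overlapped, at 5.13 and 5.75 CPM in KO MEFs and 3.35 and 5.20 CPM in WT MEFs, where WT replicate 2 was above the lower KO library. Those of germ cell RNA binding and meiotic entry also overlapped, at 1.12 and 1.31 CPM in KO MEFs and 1.5 and 1.05 CPM in WT MEFs, as did the other testis-expressed genes, at 5.15 and 4.08 CPM in KO MEFs and 4.26 and 5.37 CPM in WT MEFs. The genes of transcription and chromatin summed to 11.3 and 11.8 CPM in KO MEFs, against 6.12 and 8.08 CPM in WT MEFs.

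The nearest tested neighbours of the genes that passed the test moved in either direction. *Gpc2*, 235 bases before *Stag3* on the other strand, also rose (log2 fold change 0.997, adjusted p = 3.5e-07 by edgeR). *Brdt* lies between *Tgfbr3*, 41530 bases away, and *Btbd8*, 50939 bases away, which rose by 1.96 and 1.53 on the log2 scale. *Ribc2*, 142 bases from *Smc1b*, had a log2 fold change of 1.02 that did not pass the test (adjusted p = 0.0552 by edgeR), while *Fam118a* on the other side of *Smc1b* fell by 0.53 on the log2 scale. *Farsa* before *Syce2* had a log2 fold change of -1.03, while *Dnase2a* after it did not pass the test (-0.18, adjusted p = 0.216 by edgeR). *Slc39a14* and *Polr3d* around *Piwil2* had -1.95 and -1.11, so *Piwil2* rose between genes that fell. *Ppp1r3d*, 3521 bases from *Sycp2*, rose by 0.52 on the log2 scale, and *2810433D01Rik*, 39300 bases from *Meioc*, by 2.86. *Zfp157* after *Stag3* rose (0.60) and *Ccdc43* after *Meioc* fell (-0.20). *Zfp931* before *Sycp2* and *Aldh1b1* and *Tmod1* around *Tdrd7* did not pass the test. Over all genes tested, 34.3% rose and 32.5% fell. Genes that overlap a listed gene were not taken as its neighbours. None of the 8 genes that passed the test shares exonic bases with another annotated gene.

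Germline genes with a somatic relative stayed below it in both genotypes, when compared per length of exon. *Stag3* was at 1.12 ± 0.0265 RPKM in KO MEFs and 0.293 ± 0.0731 RPKM in WT MEFs (SD, n = 2 each). Its somatic relative *Stag2* was at 34.7 RPKM in KO MEFs and 25.8 RPKM in WT MEFs, and *Smc1a* stood at 43.9 RPKM in KO MEFs and 35.7 RPKM in WT MEFs, against 0.232 RPKM in KO MEFs and 0.101 RPKM in WT MEFs for *Smc1b*. The somatic cohesin genes *Stag1* (log2 fold change 0.48), *Stag2* (0.43) and *Smc1a* (0.30) rose as well, by less on the log2 scale than *Stag3* and *Smc1b*, a difference that was not tested.

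**Figure D4:**
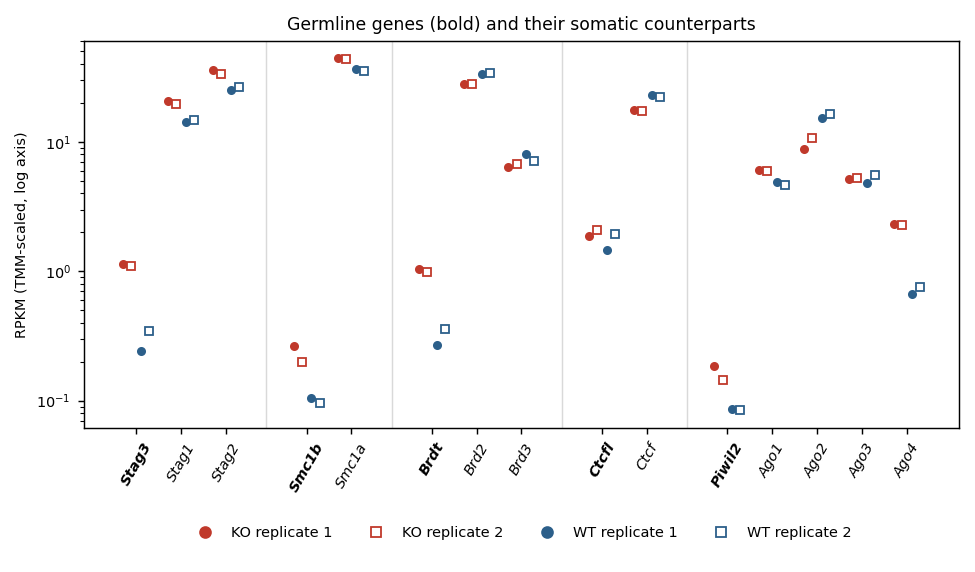
RPKM (TMM-scaled, log axis) of 5 germline genes, in bold, and of their somatic relatives, in KO (red) and WT (blue) libraries. Each of the 5 germline genes lies below all of its plotted relatives in the libraries of the same genotype.

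*Brdt* was at 1.01 RPKM in KO MEFs and 0.314 RPKM in WT MEFs, below its relatives *Brd2* (log2 fold change -0.26) and *Brd3* (-0.20), which both fell. *Ctcfl* was at 1.98 RPKM in KO MEFs and 1.70 RPKM in WT MEFs, while *Ctcf* was at 17.5 RPKM in KO MEFs and 22.6 RPKM in WT MEFs and fell (log2 fold change -0.37). Beside *Piwil2*, at 0.164 RPKM in KO MEFs and 0.0854 RPKM in WT MEFs, the Argonaute genes *Ago4* (log2 fold change 1.70) and *Ago1* (0.32) rose, *Ago2* fell (-0.70) and *Ago3* did not pass the test. *Mov10*, the relative of *Mov10l1*, rose by 0.66 on the log2 scale. The largest falls were those of *Slc25a5* (log2 fold change -1.60) and *Slc25a4* (-1.52), the ADP/ATP carriers that body cells use in place of *Slc25a31*. In all, 8 of the 19 somatic relatives rose, 10 fell and *Ago3* did not pass the test, all by edgeR at an adjusted p of 0.05, which 66.8% of all genes tested passed (34.3% up, 32.5% down).

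Genes known to keep the germline programme shut in body cells moved in both directions and by small amounts. Of 27 such genes, 26 were tested, and 7 rose, 10 fell and 9 did not pass edgeR's test, with a median log2 fold change of -0.080. Over all genes tested 34.3% rose and 32.5% fell, and whether the repressors differ from that background was not tested here. With library totals in place of TMM scaling, 12 rose and 6 fell, since that scaling shifts the median of all genes tested to 0.17. In PRC1.6, the complex that E2F6 and the E-box protein MGA bring to these promoters, 3 of 14 rose and 7 fell. The largest falls in the list were those of the PRC1.6 genes *Yaf2*, with 1628 and 1265 counts in KO MEFs against 2574 and 2186 in WT MEFs (log2 fold change -0.77), *E2f6*, with 493 and 460 counts in KO MEFs against 784 and 645 in WT MEFs (-0.63), and *L3mbtl2* (-0.60). Of its exonic bases, *L3mbtl2* shares 1023 with *Chadl* on the other strand. The largest rises were those of *Ring1* (0.69) and *Rybp* (0.49), also of PRC1.6, and of *Zbtb24* (0.47), which maintains DNA methylation at repeats.

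**Figure D5:**
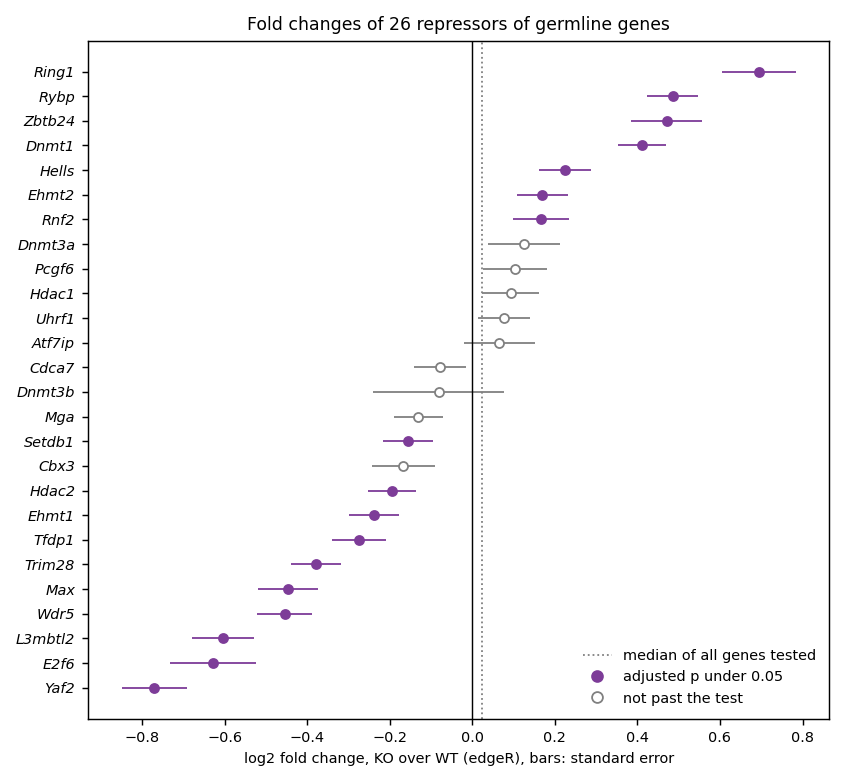
Log2 fold changes, KO over WT, of 26 repressors of germline genes, with standard errors from edgeR. Filled points passed an adjusted p of 0.05 and the dotted line is the median of all genes tested (0.024). The values run between -0.77 for *Yaf2* and 0.69 for *Ring1*.

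Of the 5 genes of H3K9 methylation in the list, *Ehmt2* rose (log2 fold change 0.17), *Setdb1* (-0.16), *Trim28* (-0.38) and *Ehmt1* (-0.24) fell, and *Atf7ip* did not pass the test. Of the 7 genes of DNA methylation tested, *Dnmt1* (0.41), *Hells* (0.22) and *Zbtb24* rose and none fell, with *Uhrf1*, *Dnmt3a*, *Dnmt3b* and *Cdca7* not past the test. *Dnmt3l*, itself a germ cell gene, had 0 and 0 counts in KO MEFs, against 1 and 0 in WT MEFs.

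Of 12 markers of germ cells 6 had a row, and the other 6 (*Dppa3*, *Prdm14*, *Kit*, *Lin28a*, *Sall4* and *Utf1*) were not analysed here. The 6 with a row had 1.83 and 1.92 CPM together in KO MEFs, against 1.70 and 1.64 CPM in WT MEFs. *Nanog* gave most of this, with 78 and 54 counts in KO MEFs, against 60 and 56 in WT MEFs (log2 fold change 0.13, adjusted p = 0.649 by edgeR). *Pou5f1* had 7 and 18 counts in KO MEFs, against 10 and 8 in WT MEFs, and the other 4 had at most 4 counts in any library. None of the 6 markers of spermatids had a row. Of 9 markers of the gonadal soma 8 had a row, of which *Inha* (log2 fold change 1.02) and *Star* (0.68) rose and *Sox9* fell (-0.98). *Amh* did not pass the test. Of the 4 not tested, *Wt1* had 7 and 3 counts in KO MEFs, against 0 and 0 in WT MEFs. *Foxl2* had 4 and 1 counts in KO MEFs, against 0 and 0 in WT MEFs. The other 2 had at most 3 counts in each genotype. The list summed to 19.3 and 23.2 CPM in KO MEFs, against 30.0 and 39.1 CPM in WT MEFs. Of this, *Sox9* alone gave 14.1 and 18.0 CPM in KO MEFs, against 27.3 and 35.9 CPM in WT MEFs. The lower sum in KO MEFs thus followed *Sox9* and not the list as a whole.

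Markers of other cell types moved in both directions, and those named here were chosen after their values were seen. Over all genes tested, 34.3% rose and 32.5% fell. Of the 12 fibroblast markers, all present, *Prrx1* rose (log2 fold change 1.92) and 7 fell, and *Dcn* had 5 and 7 counts in KO MEFs, against 1349 and 1123 in WT MEFs. Together the 12 had 13340 and 14457 CPM in KO MEFs, against 23752 and 21488 CPM in WT MEFs. Of 4 epithelial markers *Cdh1* had 142 and 107 counts in KO MEFs, against 10 and 9 in WT MEFs, and *Epcam* did not pass the test. *Krt8* had 2 and 0 counts in KO MEFs, against 6 and 18 in WT MEFs, and *Krt18* had 0 and 0 in KO MEFs, against 3 and 7 in WT MEFs, so the epithelial genes did not move together. Of 3 neural markers with a row, *Tubb3* (log2 fold change -2.82) and *Nes* (-1.52) fell, and the 3 summed to 141 and 137 CPM in KO MEFs, against 459 and 376 CPM in WT MEFs. Of 4 haematopoietic markers, *Csf1r* rose (log2 fold change 1.74) and *Ptprc* fell (-4.80), and *Csf1r* shares 871 exonic bases with *Hmgxb3* on the other strand. None of the endothelial and skeletal muscle markers tested passed. Their part in the values of the germline genes was not tested.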

How the data were processed

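Per the labels and the methods, libraries were made with the TruSeq Stranded Total RNA kit after removal of ribosomal RNA, and the authors aligned the reads to mm9 with TopHat2 and Bowtie and deposited raw counts per gene from HTSeq 0.5.4p3 on Ensembl release 67. Neither source states whether reads were counted by strand. The table also holds normalised values and the authors' own comparison, which were not used.

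Genes above 0.227 CPM in 2 of the 4 libraries were scaled by TMM and tested with edgeR 4.0.16 in R 4.3.3 (quasi-likelihood fit, genotype as sole factor), and p-values were adjusted by Benjamini-Hochberg over all 15538 genes left. For a single value, 2 against 2 libraries cannot give an exact two-sided p below 0.333. Alternatives used other scalings and filters, DESeq2 1.42.0, limma-voom (limma 3.58.1), a replicate block and leave-one-out fits. Small counts have exact conditional 95% intervals (Python 3.11.15, scipy 1.17.1), and the floor is 3 counts over a group. Both cover counting error only.

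Members and gene lists were chosen with earlier results of these data known. Members with a mean of at least 20 counts in a genotype, or called, have full values, and of the repressors and somatic relatives the 3 largest changes in each direction are named, with the relatives of named members. Positions are those of mm9, whose annotation here holds 23393 of the 23537 genes, and promoter windows are from RefSeq. A gene of these lists is not reported here.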

Additional observations from a re-analysis of the deposited data

How the results depend on the processing

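The 14 germline genes tested were refitted under 12 alternatives, and of 165 fold changes 153 kept their direction and their side of the threshold. *Tex13* reversed, at 0.087 with library totals and 0.42 without KO replicate 2, within -0.88 to 0.42 when each library was left out. The count of genes higher in KO MEFs (7) was 3 among genes whose span overlaps no other annotated gene (*Sycp2*, *Stag3* and *Tdrd7*). That set is smaller: it leaves out *Syce2*, *Smc1b*, *Piwil2* and *Brdt*, which share 0 exonic bases, and also *Dnd1*, *Ctcfl* and *Tex14*, which did not rise. The count was 8 with no filter, where 22.5% of all 23537 genes rose, and 5 with DESeq2. The count lower (1) was 0 with at least 10 counts in every library, which leaves *Meioc* out, and 0 with genes matched by name only, a choice made after seeing the data. With the fold limit, the count higher (1) was 2 with library totals and 0 with at least 10 counts in every library, and the count lower (1) was 0 with that filter and 0 with DESeq2. The repressors called were 12 higher and 6 lower with library totals. The median log2 fold change of the genes tested (0.47) was 0.53 with upper quartile scaling, 0.62 with library totals, 0.41 with no filter and 0.63 with at least 10 counts in every library. The summed CPM ratio (1.8) was 1.99 without the 3 most abundant genes and 1.62 with TMM scaling. Beyond those filters, the cause was not tested.

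When each library was left out in turn, the filter on low counts was applied again, so the set of germline genes tested changed. *Tdrd6* entered it without KO replicate 1, WT replicate 1 or WT replicate 2, and *Nanos3* without WT replicate 2. Over the genes then tested the median was 0.51 to 0.77, and the summed ratio was 1.69 to 1.92. Repressors were 5 to 8 higher and 8 to 11 lower, and somatic relatives 6 to 8 higher and 8 to 10 lower.

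With the replicate number as a block, 7 genes were higher and 1 lower, with a median of 0.48, and no call of these genes changed. The replicate differences of KO and WT correlated at -0.029 over 15538 genes, so no effect shared by libraries of the same number was seen. This does not settle whether those libraries were handled together. The p-values rest on 2 libraries for each genotype, and the 20 genes with few counts are limited by depth.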
